A study of Mus musculus with 13 samples.

Results

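The miRNAs of the miR-10, miR-100 and miR-125 family were examined in sorted mouse male germ cells. The members were the 6 hairpin genes Mir10a, Mir10b, Mir100, Mir125a, Mir125b-1 and Mir125b-2, of 2201 miRNA gene symbols in the GENCODE mouse annotation, of which 1464 had at least 1 read. Reads of 19 to 25 nt that lay exactly within these hairpins were counted. Because miR-125b-5p is identical in both of its hairpins, the 6 genes gave 7 countable features, the joint feature Mir125b-1/Mir125b-2 among them, of 1574 features with reads. No read of a member lay in the hairpin of a non-member.

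Germ cells were purified from C57BL6/J mice of postnatal weeks 3 to 4 by cell sorting with Hoechst-33342, a DNA dye that separates stages by DNA content and chromatin. The single-library set held spermatogonia (SG, 1 library), leptotene/zygotene spermatocytes (LZ, 2 libraries), pachytene/diplotene spermatocytes (PD, 1 library) and round spermatids (RS, 1 library). The technical-replicate set held 2 biological samples of spermatogonia (SG_T) and 2 of leptotene/zygotene spermatocytes (LZ_T), each sequenced in a 50-bp and a 100-bp run whose counts were summed. No label gave a genotype. A Pld6KO tag stood in the headers of all 8 summary tables of the technical-replicate set and in none of the 5 others. The study used both genotypes, so SG_T and LZ_T are described here as the set so tagged. Pld6 encodes a mitochondrial endonuclease of piRNA biogenesis, and its own mRNA could not be checked in small RNA libraries. Set, genotype, run and depth cannot be told apart in any comparison across the sets.

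MicroRNAs are cut by Dicer from hairpin precursors and guide Argonaute proteins to mRNAs that pair with the seed, the bases 2 to 8 of the mature strand. The miR-10 genes lie in the Hox clusters, whereas the miR-99/100, let-7 and miR-125 genes form conserved clusters on several chromosomes. These miRNAs are known to be abundant in stromal, endothelial and neural tissues.

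The mature 5p strands are shown because they define the groups by which the results are ordered. Capitals mark the seed. The sequences were taken from RefSeq (GRCm38.p6), which held the mature strands of all 6 members and of the relatives Mir99a and Mir99b.
miR-10a-5p: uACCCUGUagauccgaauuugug
miR-10b-5p: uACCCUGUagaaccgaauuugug
miR-100-5p: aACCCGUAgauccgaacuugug
miR-99a-5p: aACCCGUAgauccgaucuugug
miR-99b-5p: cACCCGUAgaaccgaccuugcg
miR-125a-5p: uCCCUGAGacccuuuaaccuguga
miR-125b-5p: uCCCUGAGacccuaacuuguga

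There were 3 seeds. miR-10a and miR-10b shared ACCCUGU and differed at a single base outside it (U12A, the base of miR-10a first, counted from the 5′ end). miR-100, miR-99a and miR-99b shared ACCCGUA, and miR-100 differed from miR-99a by A16U alone. miR-125a and miR-125b shared CCCUGAG and their first 13 bases.

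Positions follow GENCODE on GRCm38, and all members lie on the plus strand. Mir10a (chr11:96317165-96317274) overlapped no other annotated gene and lay 992 bp from Hoxb4. Mir10b (chr2:74726070-74726137) lay in introns of Hoxd3 and Hoxd4. Mir100 (chr9:41531425-41531504) and Mir125b-1 (chr9:41581926-41582002) lay in introns of the noncoding gene 3110039I08Rik with Mirlet7a-2 between them, 50421 bp apart. Mir125b-2 (chr16:77646273-77646343) shared the host transcript Mir99ahg with Mir99a and Mirlet7c-1. Mir125a (chr17:17830812-17830879) overlapped an exon of Spaca6, 554 bp from Mir99b and 367 bp from Mirlet7e.

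Depth ranged from 1810805 to 29956080 reads per biological sample, and miRNA reads made up 14.5% of the reads in SG, 7.33% and 10.4% in LZ, 8.37% to 17.6% in SG_T and LZ_T, and as little as 1.45% in PD and 1.98% in RS. Levels are therefore given as a percent of miRNA reads unless stated, and reads scaled to the library total (RPM) are given where the 2 scales differ. SG, PD and RS had no replicate, so the steps between these stages carry no test of their own. The 95% Wilson intervals cover counting error only. Labels do not say whether the biological replicates came from separate animals, so p-values measure the spread between these samples. In SG, 1 line of the deposited sequences lacked its count and was left out.

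Marker miRNAs were compared with the labels before the members were described. The 5 hairpins of the Mir34b, Mir34c and Mir449a group, which mark meiotic and later germ cells, summed to 0.0810% of miRNA reads in the SG library. LZ had 1.86% and 1.23%, PD had 34.9% and RS had 49.9%. In the samples labelled LZ_T they summed to 0.0698% and 0.0495%, and in SG_T to 0.0309% and 0.0224%. LZ_T thus lay below SG and did not show the level of these miRNAs that the LZ libraries had. Of the 5 hairpins only Mir449b had no read in either LZ_T sample, and it had none in LZ as well. Markers of smooth muscle, peritubular and stromal cells (7 hairpins, miR-143 the most abundant) summed to 1.71% in SG and to between 0.195% and 1.24% in the LZ, PD and RS libraries, against 4.41% and 8.52% in SG_T and 5.41% and 10.9% in LZ_T. All 7 of these hairpins had reads in the SG, LZ, SG_T and LZ_T samples. Markers of Sertoli and Leydig cells (4 hairpins, miR-202 among them) reached 5.18% and 2.12% in LZ_T and stayed between 0.0516% and 0.505% in the other 7 samples. The hairpins of this list did not move together. Mir202 gave most of the sum in LZ_T (4.99% and 2.00%) but 0.00469% in PD and 0.00604% in RS. Mir184 gave most of the sum in PD (0.477%) and RS (0.463%) but 0.00243% and 0.00290% in LZ_T.

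Summed over the 6 members, the family took 1.42% of miRNA reads in SG. LZ had 0.856% and 0.622%, PD 0.380% and RS 0.389%. SG_T had 1.59% and 3.36%, and LZ_T 3.44% and 4.501%. The order of the group means was LZ_T (3.97% ± 0.752, SD, n = 2), SG_T (2.47% ± 1.25, SD, n = 2), SG, LZ (0.739% ± 0.165, SD, n = 2), RS and PD. Both LZ_T samples lay above both SG_T samples, yet the nearer pair was close to level, and PD and RS had overlapping intervals. The sum in RPM was 2061 for SG, 627.2 and 649.5 for LZ, 54.9 for PD and 77.1 for RS, so per library read the family was far scarcer in PD and RS than its share of miRNA reads shows. In SG_T it was 1629 and 2811 RPM, and in LZ_T 4540 and 7937 RPM.

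**Figure D1:**
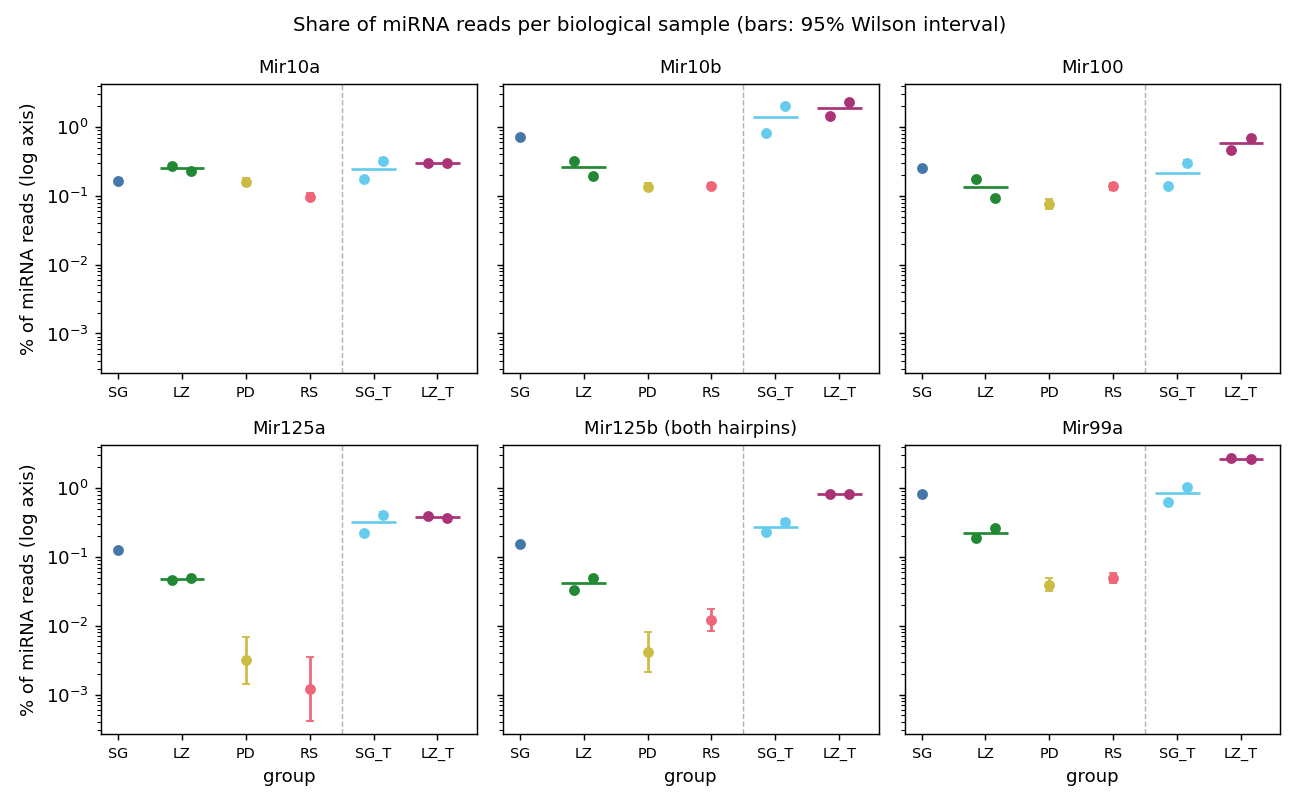
Share of miRNA reads (percent, log axis) of 5 mature members and of Mir99a in each biological sample, by group; points are samples with 95% Wilson intervals, short lines are means of 2 samples, and the dashed line separates the single-library set from the technical-replicate set. In PD, Mir125a and Mir125b are at 0.00312% and 0.00416%, and Mir10a and Mir10b at 0.160% and 0.136%. Mir10b is also lower in PD than in SG (0.722%).

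Mir10b was the most abundant member in SG, SG_T and LZ_T. The SG library held 0.722% of it, the LZ libraries 0.326% and 0.198%, PD 0.136% and RS 0.140%. By share the set tagged as Pld6 knockout had more of it, with 0.825% and 2.00% in SG_T and 1.44% and 2.30% in LZ_T. The samples of SG_T and LZ_T overlapped by share, and all 4 lay above every sample of the single-library set. In RPM the SG_T samples lay on both sides of SG (847 and 1672 against 1047). Both LZ_T samples (1904 and 4060) lay above SG and above both SG_T samples. Among all features Mir10b ranked 14 and 25 by read number in SG_T and 22 and 11 in LZ_T, against 33 and 55 in LZ.

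Mir10a, which differs from Mir10b by 1 base in the mature strand, had a flatter profile. SG held 0.164% of it, the LZ libraries 0.275% and 0.232%, PD 0.160% and RS 0.0978%. In SG_T it was 0.177% and 0.321%, and in LZ_T 0.303% and 0.302%. In RPM both LZ_T samples (400 and 532) lay above both SG_T samples (182 and 268). Over the 9 samples the share of Mir10a stayed between 0.0978% and 0.321%, a narrower range than the 0.136% to 2.30% of Mir10b. Mir10a exceeded Mir10b in PD and in 1 of the 2 LZ libraries, and nowhere else.

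Mir100 stood at 0.256% in SG, at 0.176% and 0.0931% in LZ, at 0.0765% in PD and at 0.138% in RS. The LZ libraries lay on both sides of RS. It was 0.138% and 0.2997% in SG_T and 0.464% and 0.696% in LZ_T, and the 2 LZ_T samples were the highest of all. Its relative Mir99a, not a member, was more abundant than Mir100 in the SG, LZ, SG_T and LZ_T samples (0.828% in SG, 2.72% and 2.66% in LZ_T) and less abundant in PD and RS.

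Mir125a made up 0.128% of miRNA reads in SG and 0.0463% and 0.0501% in LZ. Only 6 reads were found in PD and 3 in RS, or 0.00312% (95% Wilson interval 0.00143% to 0.00681%) and 0.00121% (0.000411% to 0.00355%). By share Mir125a was 0.220% and 0.414% in SG_T and 0.399% and 0.367% in LZ_T, where the groups overlapped. In RPM both LZ_T samples (527 and 647) lay above both SG_T samples (226 and 346).

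Mir125b, summed over both hairpins, made up 0.152% of miRNA reads in SG and 0.0332% and 0.0497% in LZ. It had 8 reads in PD, or 0.00416% (95% Wilson interval 0.00211% to 0.00822%), and 30 reads in RS, or 0.0121% (0.00846% to 0.0172%). The 2 SG_T samples had 0.227% and 0.327%, and the 2 LZ_T samples 0.830% and 0.834%, so the groups did not overlap and the LZ_T samples were close together. Reads that tell the hairpins apart come from the 3p arms and the flanks and were few. Mir125b-1 alone had 118 reads in SG, 29 and 25 in LZ, 34 and 15 in SG_T and 81 and 388 in LZ_T, with 0 reads in PD, which allows a share of up to 0.00156%. Mir125b-2 alone had 54 reads in SG, 15 and 13 in LZ, 24 and 9 in SG_T and 118 and 318 in LZ_T.

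By share of miRNA reads, Mir125a and Mir125b were much lower in PD relative to LZ than the other members. The share in PD was 0.633 times the LZ mean for Mir10a, 0.519 times for Mir10b and 0.569 times for Mir100. It was 0.0648 times the LZ mean for Mir125a (exact counting interval of the pooled reads 0.0238 to 0.142) and 0.100 times for Mir125b (0.0441 to 0.202). Mir99a (0.175 times) and Mir99b (0.0861 times) lay nearer to these than to the others, unlike Mir100, with which they share the seed. In RPM, Mir10a, Mir10b and Mir100 were also far lower in PD, at 0.105, 0.0883 and 0.0979 times the LZ mean. The let-7 hairpin beside Mir125a, Mirlet7e, had 0 reads in PD, which allows up to 0.00156% of miRNA reads. It had 0.00866% and 0.00664% in LZ and 0.0324% in SG. By share, Mirlet7c-1 (with Mirlet7c-2) was 0.0635 times its LZ mean in PD, and Mirlet7a-2 (with Mirlet7a-1) 0.658 times.

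Steps between neighbouring stages outside the technical-replicate set were taken over features with at least 10 RPM in either stage, and a feature was counted as changed where its share moved over 2-fold with both LZ libraries on the same side. Between SG and LZ, 5 of the 7 member features could be counted, and 3 were lower in LZ (Mir10b, Mir125a and Mir125b-1/Mir125b-2) and 0 higher. Of all 263 features compared, 22.4% were lower and 6.84% higher by this rule. The median log2 ratio was -1.41 over the 5 member features and -0.32 over all features. Mir100 was lower in both LZ libraries, at 0.526 times its SG share on average, which falls short of 2-fold. Mir10a moved the other way, to 1.55 times its SG share, but in RPM the 2 LZ libraries lay on both sides of SG (201 and 242 RPM against 238).

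Between LZ and PD, 2 of 5 member features were lower (Mir125a and Mir125b-1/Mir125b-2) and 0 higher, while 50% of the 194 features compared were lower and 17% higher, which is near the share of the members. Without LZ replicate 2, 4 of the 5 were lower. The median log2 ratio was -0.95 for the members and -0.99 for all features. In RPM all 5 were over 2-fold lower in PD, as were 170 of all features. Between PD and RS, 3 member features could be counted and 0 passed the 2-fold rule in either direction, against 19.8% lower and 5.49% higher of 91 features. Mir100 was 1.80 times its PD share in RS (exact counting interval 1.48 to 2.197), Mir10b 1.03 times (0.878 to 1.22) and Mir10a 0.610 times (0.513 to 0.724).

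LZ_T was compared with SG_T to ask how the members differ between the stages within the set tagged as Pld6 knockout. In the edgeR fit, Mir125b and Mir100 had the larger differences, and Mir10a, Mir10b and Mir125a differed by less than their errors. In RPM, however, Mir10a, Mir10b and Mir125a were each higher in LZ_T in all 4 pairs of samples. By edgeR's quasi-likelihood test with Benjamini-Hochberg adjustment over 588 features, 0 of the 7 member features passed 0.05, against 3.23% of all features higher and 3.40% lower. At an unadjusted p under 0.05, Mir125b-1/Mir125b-2, Mir100 and Mir125b-2 were higher, among 68 features higher and 57 lower of 588. By DESeq2, Mir125b-1/Mir125b-2 was the 1 member feature that passed after adjustment (adjusted p = 0.00772), among 26 features higher and 26 lower of 360. The log2 fold change of Mir125b-1/Mir125b-2 was 1.43 (SE 0.49, edgeR adjusted p = 0.0542), and that of Mir100 was 1.26 (SE 0.49, edgeR adjusted p = 0.0957). The values of Mir10b, Mir10a and Mir125a were 0.26, 0.11 and 0.09. The median over the 7 features was 1.07 and over all features -0.03. That 1.07 is the value of Mir125b-1, and Mir125b-1/Mir125b-2, Mir125b-1 and Mir125b-2 all come from Mir125b. The features are thus not independent, and the median weighs Mir125b above the other members. Mir99a was higher in LZ_T (log2 fold change 1.502, SE 0.46, edgeR adjusted p = 0.0252), in all 4 pairs of samples. Without SG_T replicate 2, the shallowest sample, 3 member features passed (Mir100, Mir125b-1/Mir125b-2 and Mir125b-2), among 38 features higher and 2 lower of 688. Mir99a no longer passed without any other single sample of the 3 groups in the fit, with edgeR adjusted p from 0.106 to 0.611. For the summed share of the family, a two-sided exact permutation test of 2 against 2 samples gave p = 0.333, the smallest it allows.

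LZ_T was compared with LZ to set the same labelled stage of both sets side by side. Mir125b had the largest difference, 0.832% ± 0.00317 of miRNA reads against 0.0414% ± 0.0116 (SD, n = 2 each). In edgeR's test 6 of the 7 member features were higher and 0 lower, while 21.4% of all 588 features were higher and 29.1% lower. The joint feature Mir125b-1/Mir125b-2 had a log2 fold change of 3.47 (SE 0.53, edgeR adjusted p = 1.61e-09), Mir125b-2 3.56 and Mir125b-1 2.63. Mir125a was higher by 2.06 (SE 0.51, edgeR adjusted p = 0.00024), Mir10b by 1.88 (SE 0.47, edgeR adjusted p = 0.000272) and Mir100 by 1.13 (SE 0.49, edgeR adjusted p = 0.0426). Mir10a had -0.70 (SE 0.48, edgeR adjusted p = 0.214) with composition-corrected (TMM) library sizes, but its share of miRNA reads was 1.19 times that in LZ and its RPM was higher in all 4 pairs. The median was 2.06 over the member features and -0.00 over all features. Mir125b again counts in the joint feature and in both hairpin features, so the 6 calls are not independent.

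The calls for Mir125a, Mir125b-1/Mir125b-2 and Mir125b-2 in LZ_T against LZ passed under every alternative run, with adjusted p of at most 0.0465, 0.00831 and 0.0149. Without LZ replicate 2, and likewise without LZ_T replicate 2, these 3 were the only member features that passed. The call for Mir100 was lost in these fits and without LZ replicate 1 (adjusted p = 0.0651) or LZ_T replicate 1 (adjusted p = 0.0830), and its log2 fold change ranged from 0.50 to 2.06 with 1 sample left out. It was also lost by DESeq2, with reads of 21 to 23 nt, with the match over the first 18 nt, with the replicate block and in either technical replicate alone (adjusted p from 0.0637 to 0.188). A two-sided exact permutation test of the family share gave p = 0.333, the smallest for 2 against 2 samples.

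**Figure D2:**
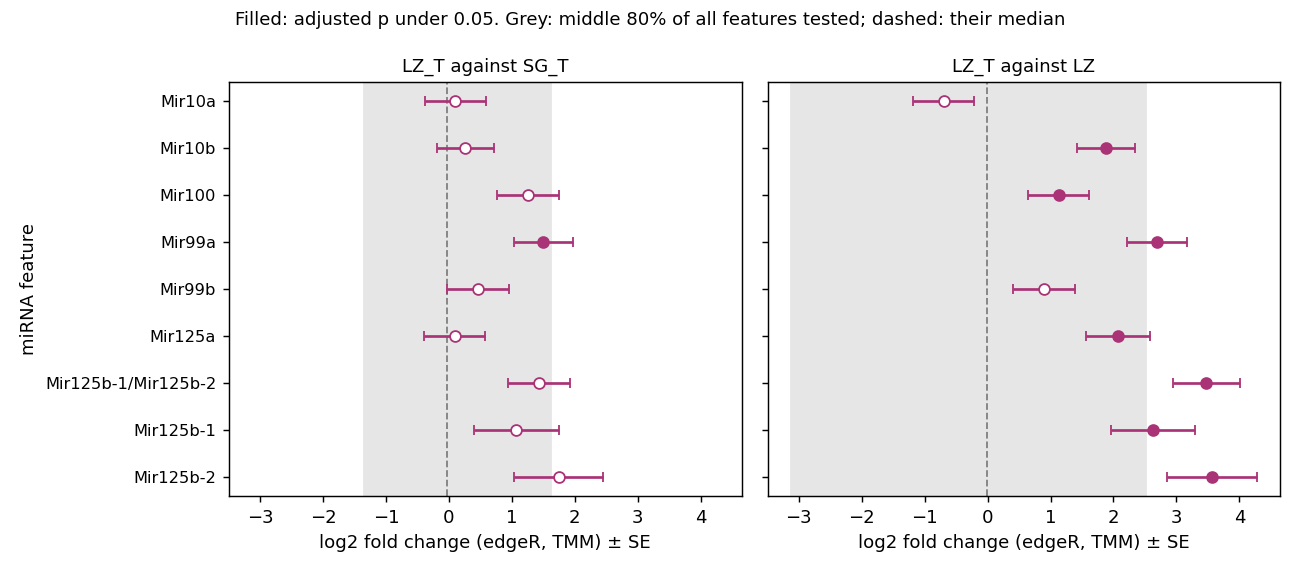
Log2 fold change (edgeR, TMM) with its SE for the 7 member features and for Mir99a and Mir99b, LZ_T against SG_T on the left and LZ_T against LZ on the right; filled points have an adjusted p under 0.05, the grey band holds the middle 80% of all 588 features and the dashed line is their median. On the right Mir125b-1/Mir125b-2 lies at 3.47 and Mir10a at -0.70, and on the left no member is filled.

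Markers of other cell types moved with the difference between the sets. In LZ_T against LZ, all 7 tested features of the smooth muscle, peritubular and stromal list were higher (median log2 fold change 3.86), as was miR-126a of endothelium (1.74), 3 of 5 blood features, and 2 of 3 Sertoli and Leydig features with 1 lower. All 4 tested features of the meiotic list were lower (median -3.91), and 2 of 11 features of the list for proliferating spermatogonia were higher and 2 lower. In LZ_T against SG_T, 1 of 7 stromal features and 2 of 3 Sertoli and Leydig features were higher. Lower were 1 of 5 blood features and 1 of 11 features of the list for proliferating spermatogonia. Of all features, 3.23% were higher and 3.40% lower. The part of other cell types in the members' differences was not tested. In pooled cells, fewer cells of a type and less RNA per cell cannot be told apart.

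**Figure D3:**
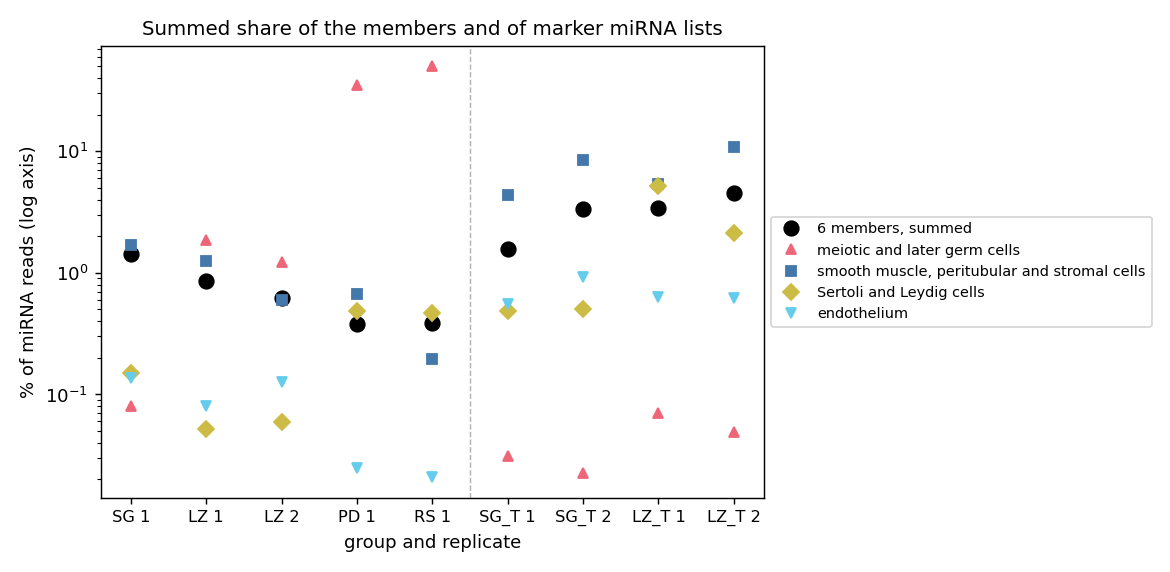
Summed share of miRNA reads (percent, log axis) of the 6 members and of 4 lists of marker miRNAs in each biological sample; the dashed line separates the sets. The members and the smooth muscle, peritubular and stromal markers are both highest in SG_T and LZ_T, and the meiotic markers of LZ_T (0.0698% and 0.0495%) lie below those of LZ (1.23% and 1.86%).

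The direction from SG to L/Z differed between the sets. Mir100, Mir125b, Mir99a and Mir99b were lower in both LZ libraries than in SG, and higher in both LZ_T samples than in both SG_T samples. The difference of the 2 steps was fitted in edgeR over SG, LZ, SG_T and LZ_T, after this change of direction had been seen. The spread of the lone SG library could not be measured and is assumed to be that of the other groups, so the p-values are conditional on that assumption. Of the 7 member features, 3 passed, all in the direction of LZ_T, against 3.51% of 656 features in that direction and 1.83% in the other. They were Mir125b-1/Mir125b-2 (log2 difference 3.18, SE 0.77, edgeR adjusted p = 0.00239), Mir125b-2 (3.58) and Mir125b-1 (3.10), and Mir99a passed as well (3.26). Mir100 had 1.94 (SE 0.77, edgeR adjusted p = 0.139) and Mir99b 1.51 (SE 0.78, edgeR adjusted p = 0.313). The calls that passed rested on single samples. Without LZ replicate 1, LZ replicate 2, LZ_T replicate 2 or SG_T replicate 2, 0 member features passed and Mir99a was lost too (edgeR adjusted p from 0.0696 to 0.0955), and 1 member feature passed without LZ_T replicate 1 or SG_T replicate 1. The log2 difference of Mir125b-1/Mir125b-2 stayed between 2.90 and 3.33 in these fits. PD and RS had no counterpart in the technical-replicate set.

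The let-7 hairpins next to the members did not move as 1 group in LZ_T against LZ. Mirlet7e rose by 2.84 on the log2 scale (SE 0.56, edgeR adjusted p = 4e-06) and Mirlet7c-1/Mirlet7c-2 by 2.03 (SE 0.48, edgeR adjusted p = 0.00011), whereas Mirlet7a-1/Mirlet7a-2 fell by 1.05 (SE 0.45, edgeR adjusted p = 0.0422). With the library total as size the value of Mirlet7a-1/Mirlet7a-2 became 0.80, and its adjusted p ranged from 0.04 to 0.785 over the alternatives in edgeR and DESeq2. Mirlet7c-1/Mirlet7c-2 lost its call without LZ replicate 1 (edgeR adjusted p = 0.0669), LZ replicate 2 (0.203) or LZ_T replicate 2 (0.0647), and Mirlet7e without LZ replicate 2 (0.0614). Most reads of let-7a and let-7c lie in several hairpins. Reads found in Mirlet7c-1 alone, the copy beside Mir99a, were higher in LZ_T by 2.68 (SE 0.79, edgeR adjusted p = 0.00237), a call lost without LZ replicate 1 (0.0584), LZ replicate 2 (0.0820) or LZ_T replicate 2 (0.0647).

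Almost all member reads came from the 5p arm. The 3p arm gave at most 0.210% of Mir100 reads in any sample, 0.0420% to 0.528% of Mir10b reads outside PD and RS, and 0.149% to 1.44% of Mir10a reads there. For Mir125b it gave 1.964% to 4.53% in the same 7 samples. The share of 3p reads of Mir125a was 1.42% to 2.36% in SG and LZ and 0% to 0.885% in SG_T and LZ_T.

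The leading 5p reads of miR-10a, miR-10b, miR-125a and miR-125b over all samples are shown, with the miR-10a read from base 2, because the results on read ends turn on them. The leading miR-100 read was the reference strand given above. Capitals mark bases 2 to 8 of the read.
miR-10b, 22 nt: uACCCUGUagaaccgaauuugu
miR-10a, 22 nt: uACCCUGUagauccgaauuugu
miR-10a from base 2, 21 nt: aCCCUGUAgauccgaauuugu
miR-125a, 22 nt: uCCCUGAGacccuuuaaccugu
miR-125b, 22 nt: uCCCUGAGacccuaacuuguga

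For miR-10a and miR-10b the leading read was 1 base shorter at its 3′ end than the reference, and it made up 51.8% and 71.9% of the 5p reads. The leading miR-125a read was 22 nt long against 24 nt in RefSeq and made up 63.9%.

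Reads that start at base 2 carry another seed, CCCUGUA in place of ACCCUGU for the miR-10 pair. They were frequent for miR-10a, with 34.1% of its 5p reads for SG, 35.4% and 33.5% for LZ, 34.4% for PD and 30.3% for RS. They were 26.8% and 25.3% in SG_T and 24.6% and 27.3% in LZ_T, all below the single-library set. In the 50-bp run alone, the read length that the single libraries share, they were 30.9%, 30.3%, 27.6% and 31.7% in these 4 samples. These still lay below SG and both LZ libraries, by less, and on both sides of RS. For miR-10b, whose seed and flanking bases are the same, such reads made up 14.8% in SG, 15.7% and 13.6% in LZ and 10.7% to 12.6% in the 4 samples of the technical-replicate set, but 13.9% to 17.02% in their 50-bp run, which overlapped SG and LZ. miR-100 had 0.919% to 1.53% of such reads in these 7 samples, and miR-125a at most 0.448%.

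miR-125b differed between the sets in both of its ends. Reads from base 2 made up 12.3% of its 5p reads in SG and 9.48% and 11.1% in LZ, but 2.43% and 3.94% in SG_T and 2.60% and 3.13% in LZ_T. Among reads with the reference start, 20-nt reads led in SG and LZ, with 37.9%, 40.4% and 40.3%, while 22-nt reads made up 32.4%, 25.3% and 33.6%. In SG_T the 22-nt reads led with 63.6% and 61.2%, and in LZ_T with 68.1% and 45.5%, and 20-nt reads made up 10.5% to 20.7%. SG and LZ did not overlap SG_T and LZ_T in either length. PD and RS had 7 and 25 5p reads of miR-125b, too few to place, and 22 nt was the most frequent length in both. Reads with A at the 3′ end that the hairpin does not hold made up 11.7% of miR-125b reads in SG and 16.1% and 14.5% in LZ, against 6.79%, 7.12%, 5.43% and 8.28% in the 4 samples of the technical-replicate set.

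The shift in length was compared with that of all features with more than 400 reads in each SG, LZ, SG_T and LZ_T sample. From LZ to LZ_T the mean read length of Mir125b-1/Mir125b-2 rose by 0.780 nt, the largest difference of the 53 features, of which 20 had longer reads in LZ_T and the median changed by -0.0279 nt. Mir125a ranked 5 with 0.270 nt, Mir100 had 0.134 nt, Mir10a 0.0176 nt and Mir10b -0.00315 nt. With 2 samples a group the exact permutation test cannot pass 0.05, so these values are descriptions. In the 50-bp run alone the base-2 starts of miR-125b were 3.32% and 4.46% in SG_T and 3.33% and 3.97% in LZ_T, and its mean read length was 21.2 to 21.5 nt against 20.5 to 20.8 nt in SG and LZ, so both gaps were also found within 1 run length.

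**Figure D4:**
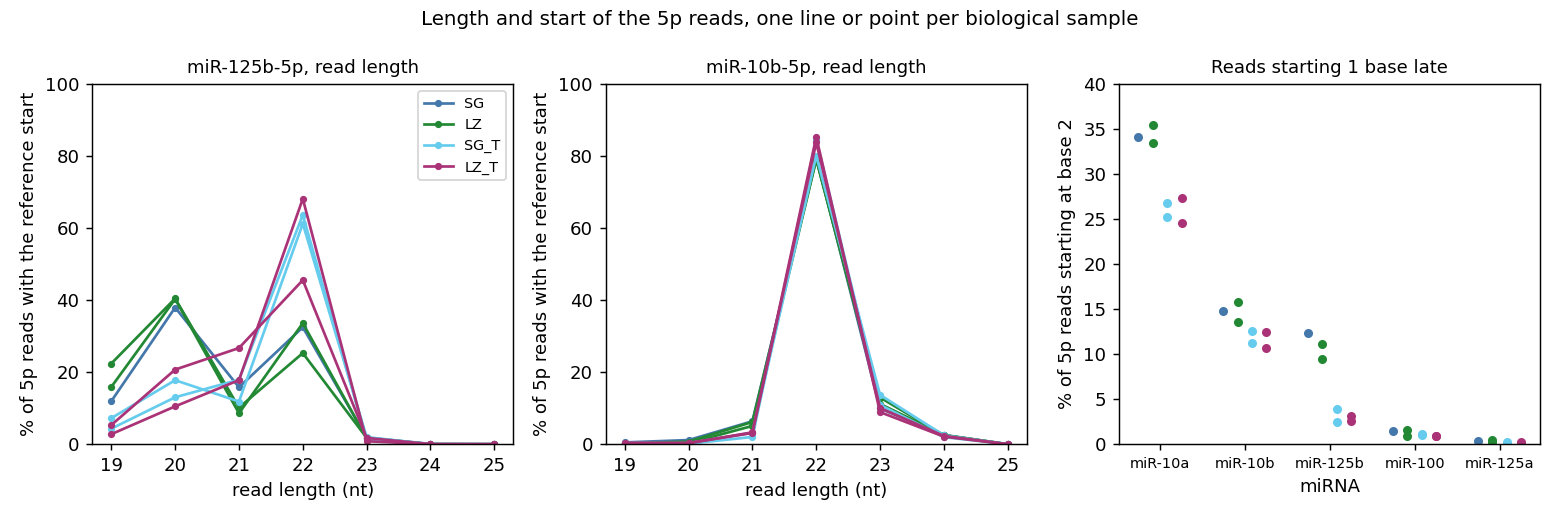
Left and middle: length of the 5p reads with the reference start (percent of these reads against nt) for miR-125b and miR-10b, one line per sample; right: percent of 5p reads that start at base 2 for 5 miRNAs, one point per sample of SG, LZ, SG_T and LZ_T. For miR-125b the SG and LZ lines peak at 20 nt and the SG_T and LZ_T lines at 22 nt, whereas the lines for miR-10b lie on one another.

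Across the 9 samples, the log2 shares of the members were described by Pearson's r, with no test, since the samples share sets and stages. Mir125b and Mir99a were closest (r = 0.989), followed by Mir125a and Mir99b (0.983), which lie 554 bp apart. Mir125a and Mir99a, on different chromosomes, had 0.955, and Mir10b and Mir125b had 0.948. Mir100 had 0.853 with Mir125b, whose hairpin Mir125b-1 shares a host gene with Mir100. Mir10a was least like the others, with r from 0.586 with Mir100 to 0.784 with Mir125a. Outside the family and the neighbours named above, the 5 of 78 features with at least 100 RPM on average that were most like the summed family were Mirlet7b (r = 0.981), Mir181a-1/Mir181a-2 (0.972), Mir199a-1/Mir199a-2/Mir199b (0.969), Mir145a (0.963) and Mir200a (0.962). Of these, Mir199a and Mir145a are in the list of smooth muscle, peritubular and stromal markers, and Mirlet7b, Mir181a and Mir200a are in none of the marker lists.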

How the data were processed

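Per the labels, small RNA libraries (TruSeq Small RNA kit) were trimmed with cutadapt (version not given in the sources used here). The authors deposited, for each of 13 libraries, raw counts of each distinct trimmed sequence of 11 nt and longer, without normalization or genome mapping. The second deposited table, retrotransposon RPM values, was used only for its header. Reads of 19 to 25 nt were matched exactly, with 0 mismatches, to GENCODE M21 miRNA transcripts, and a read that lies in several hairpins was counted for their joint feature. Technical replicates were summed. Counts of LZ, SG_T and LZ_T were fitted together in edgeR 4.0.16 (R 4.3.3; filterByExpr, TMM, quasi-likelihood, 3 residual degrees of freedom before moderation) and p-values were adjusted by Benjamini-Hochberg (limit 0.05). SE is the log2 fold change over the root of F. On 20 simulated sets for LZ_T against SG_T (570 features), the fit found 56.2% of log2 changes of 2 and 9.70% of those of 1, and 3.03% of its calls were false. The simulated LZ, SG_T and LZ_T shared the same mean profile, apart from equally many changes up and down in LZ_T. They held no shift in composition of the kind seen between LZ and LZ_T, so these rates do not cover it. DESeq2 1.42.0, other size factors, filters, lengths and matches, and left-out samples were alternatives. Likeness used log2(percent + 0.001). A level at 0 is bounded by 3 reads. Named genes are the members, Mir99a, Mir99b, the neighbouring let-7 genes and the 5 features most like the family. Ligation and PCR without molecular identifiers make levels of different miRNAs comparable only roughly. Replicates differed beyond sampling noise, and no samples were merged. The members and lists were chosen with earlier results of these data known.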

Additional observations from a re-analysis of the deposited data

Results flagged for a closer look

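In an edgeR fit of the difference between the sets in the step from SG to L/Z, an adjusted p under 0.05 was found for Mir125b-1/Mir125b-2 (log2 difference 3.18), Mir125b-2 (3.58), Mir125b-1 (3.10) and the relative Mir99a (3.26). Both Mir125b hairpins give the same 5p strand, so these are not independent. The fit was made after the change of direction had been seen, and the spread of the lone SG library is assumed. Without LZ replicate 1, LZ replicate 2, LZ_T replicate 2 or SG_T replicate 2, none of these 4 features passed. The meiotic marker miRNAs of LZ_T (0.0698% and 0.0495% of miRNA reads) lay below those of SG (0.0810%), so LZ_T goes against its stage label when set beside the single-library set. Within its own set LZ_T lay above SG_T (0.0309% and 0.0224%), the direction of the label, though 0 of 4 tested features of this list passed. The sets also differ in the Pld6KO tag, in marker miRNAs of other cell types, in run and in depth, and the part of each was not tested.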

How the results depend on the processing

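In LZ_T against SG_T, 39 features and 0 member features passed in edgeR. DESeq2 called 1 member feature (26 features higher and 26 lower of 360 in all). The 2 groups alone (25 higher and 15 lower of 485) and technical replicate 2 alone (18 and 19 of 570) also called 1 each. No filter (33 higher and 7 lower of 1508) and shared reads divided among hairpins (22 and 30 of 625) each called 2. The library total as size called 3, and 64 features of 577 in all. Fewer features passed with reads of 21 to 23 nt (8), the match over the first 18 nt (19) and technical replicate 1 alone (13). Leaving out 1 sample gave 0 to 40 features and 0 to 3 member features. In LZ_T against LZ, technical replicate 1 alone gave 178 of the 297 features, and leaving out 1 sample gave 151 to 355 features and 3 to 6 member features. With the library total as size the median of all features moved to 0.73 (LZ_T against SG_T) and 1.71 (LZ_T against LZ). Relative to that shift Mir10a (1.07 against LZ) stayed below the median, and Mirlet7a-1/Mirlet7a-2 turned to 0.61 and 0.80. In LZ_T against SG_T, values that turned on leaving out a sample ranged from -0.33 to 1.45 (Mir10b), -0.22 to 1.00 (Mir10a), -0.25 to 1.03 (Mir125a), -0.53 to 2.097 (Mirlet7c-1/Mirlet7c-2), -0.57 to 1.65 (Mirlet7e) and -0.96 to 1.15 (Mirlet7a-1/Mirlet7a-2). For the difference between the sets, 35 features and 3 member features passed, against 118 and 6 with the library total as size, where Mir10a became 1.15 and Mirlet7a-1/Mirlet7a-2 1.32, and 0 to 20 features and 0 to 1 member feature with 1 sample left out, where Mirlet7a-1/Mirlet7a-2 ranged from -1.26 to 0.36. The cause of these changes was not tested.

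Replicate numbers are shared by the groups but no label ties a number to an animal. With the replicate number as a block, 0 features passed in LZ_T against SG_T, and 270 in LZ_T against LZ with 5 member features, Mir100 lost. The deviations of equally numbered samples correlated at 0.37 (SG_T and LZ_T), -0.09 (LZ and LZ_T) and -0.25 (LZ and SG_T).

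In RPM the log2 ratio of the family was -1.69 (LZ over SG), -3.54 (PD over LZ), 0.49 (RS over PD), 1.49 (LZ_T over SG_T) and 3.29 (LZ_T over LZ), against -0.94, -0.96, 0.03, 0.68 and 2.42 by share. Mir10a turned to -0.10 in LZ over SG, and 5 member features were over 2-fold lower in PD instead of 2. Leaving out an LZ library gave 2 to 4 there. Of 155 alternative ratios of single members, 129 stayed within the larger replicate SD, or within counting error for RS over PD. A change of sign within that spread counted as staying. Ratios with a sample left out were judged by the SD of the same 2 samples, so that part of the count carries no information. SG_T replicate 2 was the shallowest sample (151495 miRNA reads). In PD and RS, Mir125a and Mir125b rest on 3 to 30 reads.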
